A study of Caenorhabditis elegans with 12 samples.

Results

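Of the 31 protein-coding genes named flp in the RefSeq gene table of the WBcel235 assembly, none held an ETS-5 window. None of the 31 lay within 2000 bp of a region found in all 3 ETS-5 precipitates. Of all protein-coding genes, 7.13% held a window of any precipitate and 9.21% had such a region inside or within 2000 bp. The exact binomial interval of 0 of 31 runs up to 11.2%, and so includes both shares. The flp genes were taken by their symbol, from 19971 protein-coding genes on the 6 nuclear chromosomes of Caenorhabditis elegans. They encode FMRFamide-like peptides, short amidated neuropeptides that end in arginine and phenylalanine. A precursor protein is cut at basic residues, trimmed and amidated in dense core vesicles, and the released peptides act on G protein-coupled receptors of other neurons and muscle. The ETS transcription factor ETS-5 is known for shaping the BAG neurons, sensory cells of the head that respond to oxygen and carbon dioxide. The genes flp-10, flp-11, flp-13, flp-16, flp-17 and flp-19 are called BAG peptide genes here.

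The series has 12 chromatin immunoprecipitation samples of whole worms, in 4 groups of 3. These are the ETS-5 precipitates and their inputs, from strain FQ237, which the series title describes as ets-5-gfp, and the wild-type precipitates and their inputs, from strain N2. The labels list an antibody against GFP, the fluorescent tag, for every sample, inputs included, and all worms were fed Escherichia coli OP50. The sources used here do not give age, stage or sex, nor how the tag was introduced. The extract holds every cell of the animal, so a window cannot be assigned to the BAG neurons or to any other cell. Window lists of the 3 ETS-5 precipitates were used, and the other 9 samples were not analysed here, so no difference from wild type or input was computed. Nothing in the labels says whether the 3 precipitates came from separate cultures.

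Each list gives windows of 400 bp without a score, 3811, 2915 and 3697 of them in replicates 1 to 3. Merging overlapping windows gave 5455 regions, of which 1788 held a window of every replicate and are called shared regions. A window or region was placed at its middle, and its distance from a gene is that to the nearer end, or 0 bp inside. At the tagged gene ets-5 a window lay inside in every replicate, at line 1 of each list. Where no window is reported, a list has no entry, and its depth and threshold are unknown.

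No flp gene had a window inside in any of the 3 replicates (0 of 31), against 5.37%, 3.76% and 5.06% of all protein-coding genes in replicates 1 to 3. Over all protein-coding genes, 7.13% held a window of any replicate and 2.56% held a shared region. Within 2000 bp, again none of the 31 flp genes had a shared region, against 9.21% of all protein-coding genes. The exact 95% binomial interval of 0 of 31 runs up to 11.2%, and so includes the share of all genes. Such intervals cover counting error only and treat genes as independent, which neighbours are not. A window of at least 1 replicate lay within 2000 bp of 4 flp genes (12.9%, exact interval 3.63% to 29.8%), against 23.8% of all protein-coding genes. These 4 were flp-17, flp-20, flp-27 and flp-32. Each rested on 1 replicate alone, and without replicate 1 the count was 2, against 21.5% of all protein-coding genes.

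By replicate, windows lay within 2000 bp of 2, 1 and 1 flp genes. The matching shares of all protein-coding genes were 16.8%, 14.1% and 18%. On average 4.30% ± 1.86 of flp genes had a window in this range, against 16.3% ± 2.02 of all protein-coding genes (SD, n = 3 replicates). The gap was wider than the spread between replicates. It rests on few genes, however. The exact interval over the 31 genes ran from 0.791% to 21.4% in replicate 1 and from 0.0816% to 16.7% in replicates 2 and 3, which excludes the share of all genes in replicate 3 and includes it in replicates 1 and 2. Among all genes in the flp length range, the shares were 14.0%, 11.8% and 15.5%, each inside the interval of its replicate. That range holds 16786 of the 19971 protein-coding genes, so it is not a close match in length.

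**Figure D1:**
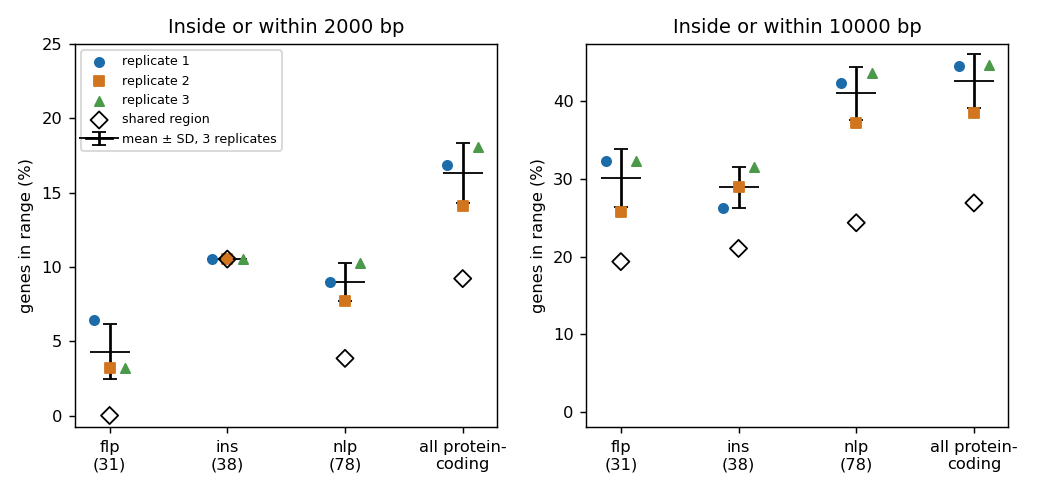
Percent of genes with a window inside or within 2000 bp (left) and 10000 bp (right), for flp genes, ins genes, nlp genes and all protein-coding genes. Coloured points are replicates, bars are mean ± SD of the 3 replicates, and diamonds are shared regions, for which flp genes stand at 0 on the left against 9.21% of all genes.

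The nearest window of the whole family belonged to flp-17, whose peptides are released by BAG and inhibit egg laying through the receptor EGL-6. In replicate 3 a window at chromosome IV, 17192148 to 17192547, lay 456 bp from the gene, at line 1586 of 3697, and flp-17 was its nearest protein-coding gene. Positions are those of the files, given with starts counted from 1, taking the deposited starts as counted from 0, and the sources used here do not name their build. Neither of the other lists had this window. All 3 lists had one farther out, in a shared region at 17195802 to 17196237. It lay 4132 bp from flp-17, on the same side, at line 1681, 1408 and 3121 of replicates 1 to 3. The gene cnnm-1, of a family of magnesium transporters, was nearer to it, at 1888 bp. Of all 31 genes flp-17 had the nearest shared region in the full lists. In the first 50% of the lines of each list its nearest was 57989 bp away, farther than the 9776 bp of flp-19.

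The other gene of the EGL-6 ligands, flp-10, lay far from any window. Its nearest windows were 20498, 20523 and 20529 bp away in replicates 1 to 3, all parts of 1 shared region, while in the first 50% of the lines the nearest shared region was 170736 bp away. For flp-19, a further BAG peptide gene, the nearest windows lay at 9804, 9785 and 7182 bp. A shared region at chromosome X, 10594683 to 10595148, lay 9776 bp from flp-19, at line 935, 1005 and 1069. It was nearer to sdn-1, the syndecan gene, at 1576 bp. Replicate 3 alone had 2 more windows near flp-19, at 7182 and 8186 bp on the same side.

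The gene flp-16 had windows within 10000 bp in replicates 1 and 3 but none in replicate 2. Replicate 1 had windows at 6894 and 9957 bp, and replicate 3 at 2730, 6631 and 6925 bp. The windows at 6894 and 6925 bp overlapped, and flp-16 was the nearest protein-coding gene of that region. In replicate 2 the nearest window was 13433 bp away, in a shared region 13416 bp from the gene. Without replicate 2 the nearest region of both other lists lay at 6909.5 bp. The peptides of flp-11 and flp-13 promote sleep, flp-11 from the neuron RIS and flp-13 from ALA. Windows nearest to flp-11 lay at 14890, 14790 and 14856 bp, within 1 shared region. Those nearest to flp-13 lay at 36256, 36258 and 28796 bp, with the shared region at 36135 bp. When windows had to overlap by 100 bp, the nearest shared region of flp-13 was 77472 bp away. The third gene of the sleep list, flp-24, also of ALA, had its nearest windows at 13865, 13888 and 13853 bp.

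Over the 6 BAG peptide genes, the nearest shared region lay a median of 14131 bp away, with 2 genes within 10000 bp. For the other 25 flp genes the median was 15041 bp, with 4 genes within 10000 bp. The shares within 10000 bp were thus 33.3% of BAG peptide genes and 16% of the other flp genes, against 26.9% of all protein-coding genes, whose median was 23687 bp. Exact intervals of the first 2 shares, 4.33% to 77.7% and 4.54% to 36.1%, overlap and both include the share of all genes. The BAG peptide genes ranged from 4132 bp for flp-17 to 36135 bp for flp-13, and the other flp genes from 4693 bp for flp-18 to 132419 bp for flp-23.

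**Figure D2:**
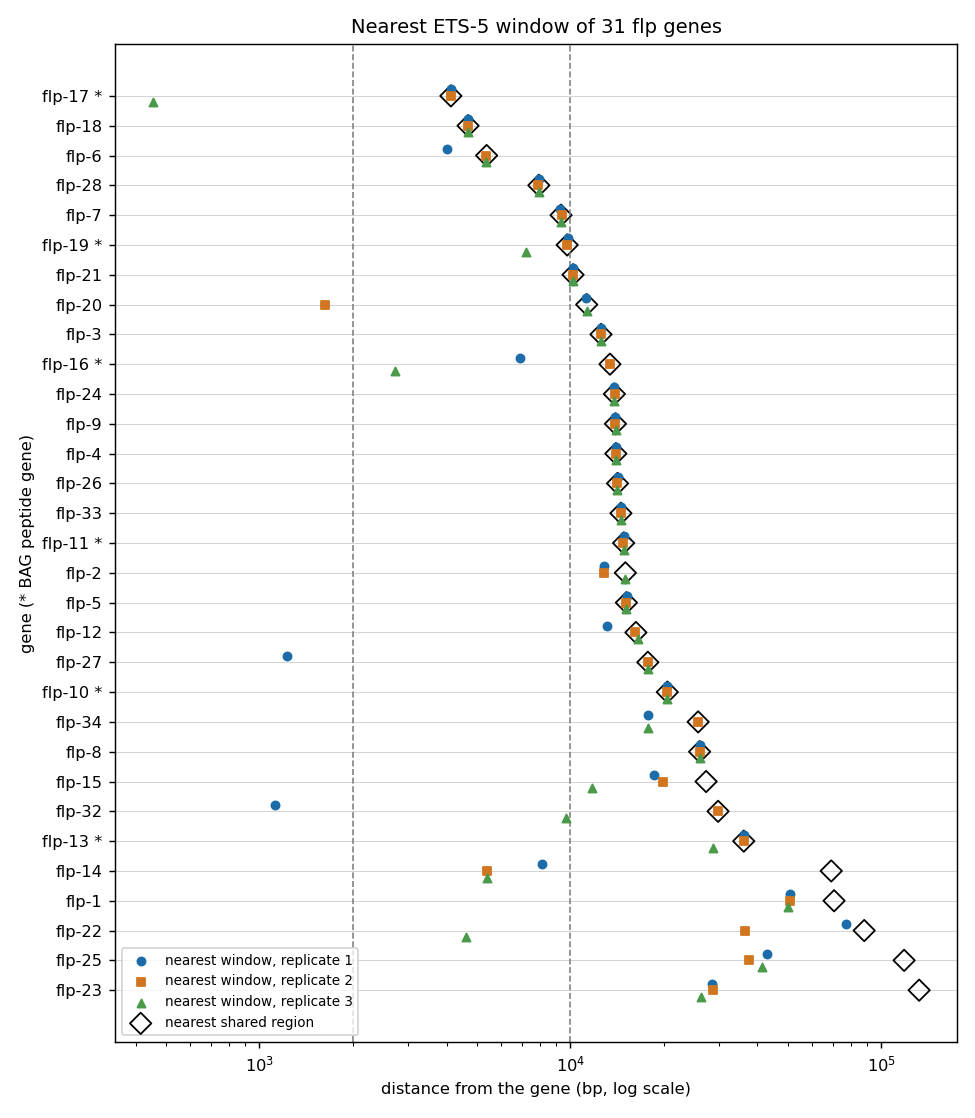
Distance from each of the 31 flp genes to its nearest window in replicates 1 to 3 (coloured points) and to its nearest shared region (open diamonds), on a log axis. Dashed lines mark 2000 and 10000 bp. No diamond lies left of 2000 bp, and the 4 coloured points there are single replicates, of flp-17, flp-20, flp-27 and flp-32.

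The 3 further genes with a window within 2000 bp did not have one there in the other lists. For flp-20, which acts in touch-sensitive neurons and male mating, replicate 2 had a window 1628 bp away at line 2093, while the nearest in replicates 1 and 3 lay at 11270 and 11354 bp. That window was nearer to oga-1, which encodes an enzyme that removes the sugar N-acetylglucosamine from proteins, at 218 bp. For flp-27 replicate 1 had a window 1226 bp away at line 2728, inside vps-13D, against 17733 and 17766 bp in replicates 2 and 3. For flp-32 replicate 1 had a window 1126 bp away at line 2044, inside mocs-1, against 29896 and 9676 bp in replicates 2 and 3. Of the 4 close windows, that of flp-17 was the one with the flp gene nearest.

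**Figure D3:**
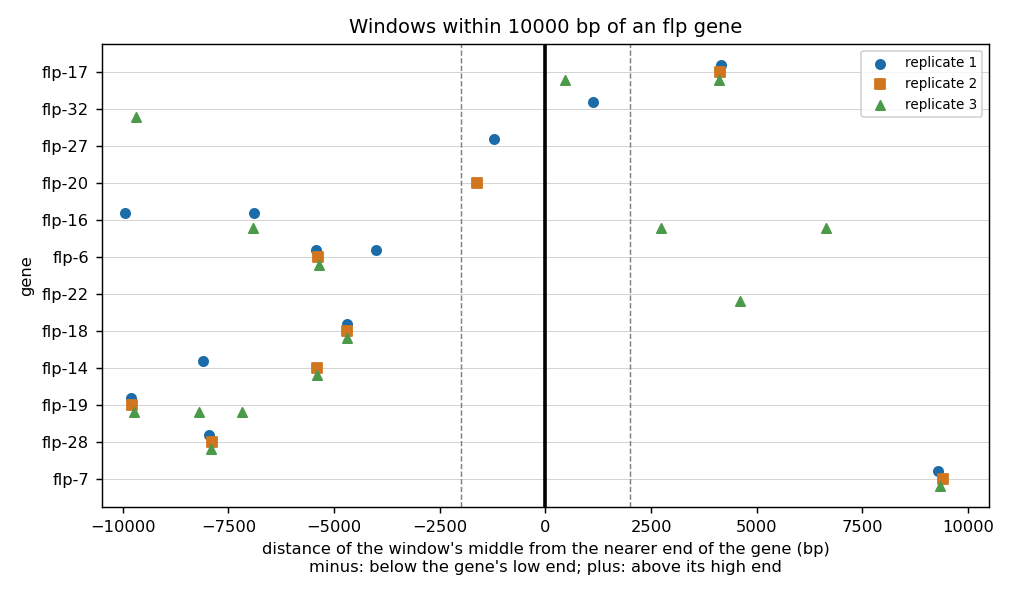
Every window within 10000 bp of an flp gene, as the distance of its middle from the nearer end of the gene, below the low end (minus) or above the high end (plus), for the 12 genes with such a window. The gene is drawn as the line at 0 and dashed lines mark 2000 bp. Windows of all 3 replicates overlap in a shared region at flp-17, flp-6, flp-18, flp-19, flp-28 and flp-7, with the same position in each list at flp-18 alone.

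Within 10000 bp, 6 of the 31 flp genes had a shared region (19.4%, exact interval 7.45% to 37.5%), against 26.9% of all protein-coding genes. Besides flp-17 and flp-19 these were flp-18, flp-6, flp-28 and flp-7. The share of all genes lies inside the interval. None of the 6 was the nearest protein-coding gene of its shared region, so the count is 0 when a region counts for its nearest gene alone, against 7.38% of all protein-coding genes by that rule. A window of any replicate lay within 10000 bp of 12 flp genes (38.7%), against 55.9% of all protein-coding genes. By replicate 10, 8 and 10 flp genes had one, against 44.5%, 38.6% and 44.6% of all protein-coding genes. The flp genes thus averaged 30.1% ± 3.72, against 42.6% ± 3.48 of all protein-coding genes (SD, n = 3 replicates). The windows in this range numbered 12, 8 and 15 in replicates 1 to 3, or 0.332% ± 0.0672 of a list (SD, n = 3 replicates), with exact 95% binomial intervals of 0.163% to 0.549%, 0.119% to 0.540% and 0.227% to 0.668%. No such share of windows was computed for other genes, so these values cannot be called high or low.

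The steadiest of these sites was that of flp-18, whose peptides act on the receptor NPR-1, which sets foraging and aggregation, and on related receptors. All 3 replicates placed a window 4693 bp from the gene, at chromosome X, 3007298 to 3007697. The windows stood at line 511, 347 and 342, and the region's mean place was 11.5% of the way down the lists, the earliest of the 6. The median of all 1788 shared regions was 36.2%. The sources used here do not say what the line order stands for. Y48D7A.1 was nearer, at 1993 bp. For flp-21, the other NPR-1 ligand gene, the nearest windows lay at 10240, 10182 and 10206 bp, just outside the wider limit.

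A shared region 5384 bp from flp-6, at chromosome V, 9466357 to 9466819, held windows at line 1959, 1412 and 2054, and was nearer to F07D3.3, at 3886 bp. Replicate 1 had a further window at 4010 bp, whose nearest protein-coding gene was flp-6. The gene flp-7, whose peptides from a sensory neuron regulate fat stores through the receptor NPR-22, had a shared region 9340 bp away at chromosome X, 5895929 to 5896430, at line 2205, 2251 and 1973. The gene tbc-16 was nearer, at 1165 bp. The genes flp-28, flp-3 and flp-2 neighbour each other on chromosome X, and all 3 overlap the gene W07E11.1. They share 1 nearest shared region, at 10079160 to 10079615, which lay 7925 bp from flp-28, 12557 bp from flp-3 and 15041 bp from flp-2. It held windows at line 599, 864 and 2494 and was nearer to the collagen gene col-176, at 661 bp. These 3 genes are thus not 3 independent observations.

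At flp-14 and flp-22 windows within 10000 bp did not form a shared region. For flp-14 the nearest windows lay at 8090 bp in replicate 1, and at 5404 and 5401 bp in replicates 2 and 3, where they overlapped. That site lay 384 bp from cox-5A, which encodes a subunit of cytochrome c oxidase. With flp-14 counted, 7 flp genes (22.6%) had a window of every replicate within 10000 bp, against 29.7% of all protein-coding genes. For flp-22 replicate 3 alone had a window in range, at 4611 bp and line 3566, while replicates 1 and 2 had none nearer than 77324 and 36428 bp. In all, 21 regions lay within 10000 bp of an flp gene. Of these, 13 were seen in 1 replicate, 2 in 2 and 6 in 3, against 1788 in 3 replicates of all 5455 regions. In 18 of the 21 another protein-coding gene lay at least as near. No matching share was computed for regions near other genes.

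The remaining 19 genes had no window within 10000 bp in any list. Besides flp-10, flp-11, flp-13, flp-24, flp-21, flp-3 and flp-2, these were flp-1, flp-4, flp-5, flp-8, flp-9, flp-12, flp-15, flp-23, flp-25, flp-26, flp-33 and flp-34. Their nearest windows lay from 10182 to 50815 bp away. The farthest were those of flp-1, a gene of locomotion expressed in AVK interneurons, at 50815, 50783 and 50224 bp. The shared region nearest to any of the 19 lay 10209 bp from flp-21, against 9776 bp for flp-19 on the other side of the limit.

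Although shared regions were few close to flp genes, they were not far from them at a wider scale. From 10000 to 20000 bp lay the nearest shared region of 14 flp genes (45.2%), against 17.7% of all protein-coding genes. Within 5000 bp the shares were 6.45% of flp genes against 16.2% of all genes, and within 20000 bp they were 64.5% against 44.6%. The median distance to a shared region was 14845 bp for flp genes, against 23687 bp for all genes. To the nearest window it was 14012 ± 160 bp for flp genes, against 12996 ± 1671 bp for all genes (SD, n = 3 replicates). By replicate the flp medians were 13865, 14182 and 13989 bp, against 11999, 14925 and 12064 bp for all genes. The flp median for single windows was thus the larger in replicates 1 and 3 and the smaller in replicate 2. The bin from 10000 to 20000 bp was chosen with the distances known and was not tested.

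**Figure D4:**
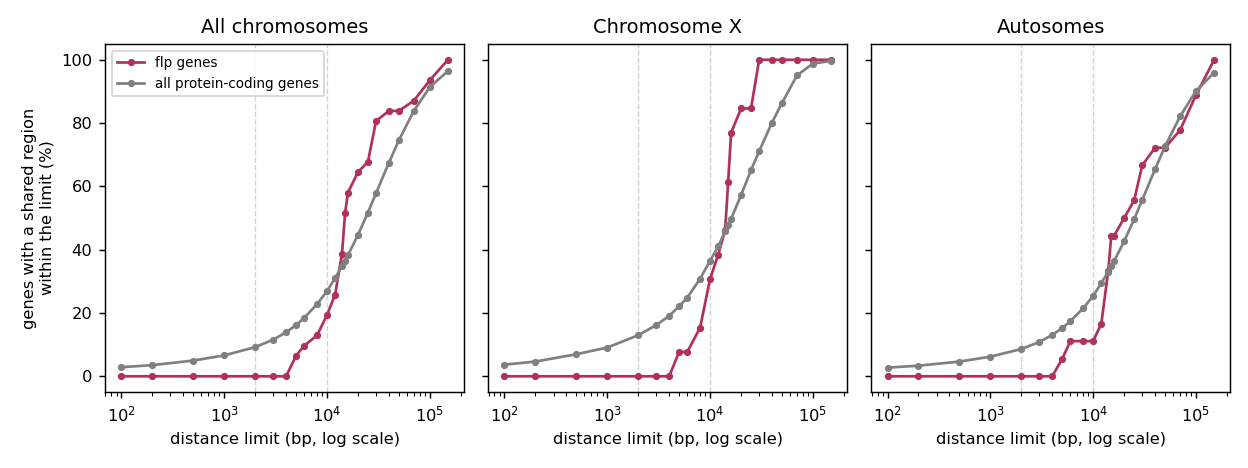
Percent of flp genes and of all protein-coding genes with a shared region within a given distance (log axis), on all chromosomes, on chromosome X and on the autosomes. The flp line stays at 0 up to 4000 bp, lies below that of all genes at 10000 bp (19.4% against 26.9%) and above it at 20000 bp (64.5% against 44.6%).

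The family is unevenly placed in the genome. On chromosome X lay 13 of the 31 flp genes (41.9%), against 13.7% of all protein-coding genes. Shared regions were found within 2000 bp of 0 of these 13, against 12.97% of all genes on X, and of 0 of the 18 on autosomes, against 8.62% of all autosomal genes. Within 10000 bp they were found for 4 of 13 flp genes on X (30.8%), against 36.5% of all genes on X, and for 2 of 18 on autosomes (11.1%), against 25.4%. From 10000 to 20000 bp lay 53.8% of flp genes on X, against 20.7% of all genes there, and 38.9% of those on autosomes, against 17.3%. Both chromosome classes thus showed the same order, with few genes behind each value.

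The flp genes are short, with a median length of 1186 bp, against 2006 bp for all protein-coding genes. A short gene offers less sequence to hold a window. Among the 16786 genes in the flp length range, from 505 to 6694 bp, 1.09% held a shared region and 7.40% had one inside or within 2000 bp. Windows of replicates 1 to 3 lay inside 2.79%, 1.73% and 2.79% of the genes in this range. The flp genes also have few neighbours, with a median of 3 other protein-coding genes within 10000 bp, against 5 for all genes. On chromosome X the median was 4 both for flp genes and for all genes. The wider of the gaps to the next gene that does not overlap was 7227 bp (median), against 2488 bp for all genes. On chromosome X it was 5419 bp for flp genes, against 4052 bp for all genes there. Of the 31, 10 (32.3%) overlap another protein-coding gene, against 25.4% of all genes, among them flp-13 with itr-1, the inositol trisphosphate receptor gene, and flp-19 with abl-1, a tyrosine kinase gene. The gene table gives no strand, so upstream and downstream windows could not be told apart. How far length and spacing enter the counts above was not tested.

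In the mean share over replicates of genes with a window within 2000 bp, the other peptide families lay between flp genes and all genes. A window in that range was found for 10.5% of ins genes in each replicate and for 8.97% ± 1.28 of nlp genes (SD, n = 3 replicates). This order did not hold for every count. A window of any replicate lay within 2000 bp of 10.5% of ins and 15.4% of nlp genes, against 12.9% of flp genes. Within 10000 bp the mean share was 28.9% of ins and 41.0% of nlp genes, against 30.1% of flp genes. For shared regions the ins genes were close to all genes. Of 38 ins genes, which encode insulin-like peptides, 4 had a shared region within 2000 bp (10.5%), and of 78 nlp genes, which encode other neuropeptide-like proteins, 3 had one (3.85%). Like flp genes, neither family had a shared region inside any member. These differences between families were not tested.

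The listed genes that make and release flp peptides stood nearer to shared regions than the flp genes did. Their median distance was 1572 bp, against 14845 bp for flp genes and 23687 bp for all protein-coding genes. Of 8 genes of peptide processing and release, 4 had a shared region inside or within 2000 bp (50%), against 9.21% of all genes. Both egl-21, the carboxypeptidase that trims the cut peptides, and pgal-1, an enzyme of the amidation step, held a window in every replicate. For egl-21 these stood at line 652, 464 and 546. The amidation gene pghm-1 had its nearest windows at 60, 61 and 32 bp, and egl-3, the proprotein convertase gene, at 724, 784 and 964 bp. For unc-31, needed for the release of dense core vesicles, windows lay at 254, 235 and 2308 bp. The convertase chaperone gene sbt-1 had one at 82 bp in replicate 3 and at 6764 and 6743 bp in replicates 1 and 2. Of the list, pamn-1 had windows at 3037, 3007 and 3012 bp, and ida-1, a gene of dense core vesicles, had none nearer than 19859 bp. The list was chosen with windows near egl-3 and egl-21 already known, so its count and its median distance are descriptions.

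Of 14 receptor genes for flp peptides, 1 had a shared region inside or within 2000 bp (7.14%), close to the 9.21% of all genes. It was dmsr-1, a receptor for flp-13 peptides, with a window inside in replicate 1 and at 1292 and 1200 bp in replicates 2 and 3. The receptor gene egl-6, of flp-10 and flp-17, held a window in replicate 1, at line 2038, while the nearest in replicates 2 and 3 lay at 17420 and 15621 bp. The NPR-1 receptor gene npr-1 had none nearer than 6136 bp.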

How the data were processed

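The authors deposited, for each ETS-5 precipitate, a list of windows with chromosome, start and end, 1 per line, with no score, count or header. Per the submitters' processing notes, Bowtie2 and MACS2 were among the tools, with no settings stated. The sources used here do not give the build, the threshold or the control of the peak calls, and each could change which windows are listed. Gene names and positions came from the RefSeq table of WBcel235, and its coordinates are not printed. No local check of the match between files and table was made beyond shifting windows by 100 bp. No genome, promoter or protein sequence was used, so the planned descriptions of ETS motifs and of precursor repeats were not made.

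Windows overlapping by at least 1 bp were merged. Counts for flp genes were set against shares of all 19971 protein-coding genes under the same rule, with no set test and no p-value. Named were the 6 BAG peptide genes, every flp gene with a window within 2000 bp, those with a shared region within 10000 bp, and nearer genes at their regions. The 19 genes without a window in range were named to complete the count, and some receptor genes and members of the processing list outside this rule. Members and lists were chosen with earlier results of these data known. Distances of 200 planted windows were recovered (200 of 200), and all 59913 nearest distances equalled those of bedtools 2.31.1. Analyses used Python 3.11.15, numpy 2.4.6 and scipy 1.17.1.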

Additional observations from a re-analysis of the deposited data

How the results depend on the processing

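The counts of 0 flp genes with a shared region inside or within 2000 bp stayed at 0 with the nearest window edge, with 100 bp of overlap, with regions of at least 2 replicates, without each replicate, in the first 50% of the lines, with windows shifted by 100 bp and with the nearest gene alone. They rest on lists of unknown depth. The nearest gene alone could not raise a count of 0, and 100 bp of overlap and the first 50% of lines mainly take regions away. Leaving out a replicate largely repeats the setting of at least 2 replicates. The edge and shift settings could not raise them either. The shared region nearest to any flp gene lay 4132 bp from flp-17, or 3911 bp by its edge. The settings that admit regions of 2 replicates were those that could readily have raised the counts. Over all genes, regions of at least 2 replicates lay within 2000 bp of 15.1%, and those of the first 50% of lines of 4.30%. With the nearest gene alone the share of all genes was 6.24%. With a limit of 5000 bp, 2 flp genes had a shared region, against 16.2% of all genes. The 6 genes within 10000 bp became 2 in the first 50% of lines, against 13.8% of all genes, and 0 with the nearest gene alone, against 7.38%. Leaving out a replicate gave 6 to 7, against 28.9% to 34.6% of all genes. Regions of at least 2 replicates gave 8, against 40.5% of all genes. The 4 genes with a window of any replicate within 2000 bp became 1 in the first 50% of lines, 1 with the nearest gene alone, 1 at 1000 bp and 8 at 5000 bp, against 15.1%, 16.003%, 17.8% and 37.8% of all genes. Without a replicate the count was 2 to 3, against 18.7% to 23.0%. The mean share of 4.30% became 1.08% under the first 3 of these and 12.9% at 5000 bp, against 9.33%, 10.9%, 11.9% and 27.1% of all genes. The median distance from BAG peptide genes to a shared region, 14131 bp, became 12310.5 bp with regions of at least 2 replicates and 28905.5 bp in the first 50% of lines, and ranged from 12322 to 14130 bp without a replicate. With the nearest gene alone it has no value. The causes were not tested, apart from the shorter lists and other limits that these settings make by construction. Counting windows of every replicate whether or not they overlap, added after the data were seen, gave 7 genes within 10000 bp, against 29.7% of all genes. The overlap and 2-replicate settings do not bear on single windows. No paired analysis was possible because only the ETS-5 precipitates have lists here.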

Other observations

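Several receptor genes for flp peptides had windows in some replicates only. For npr-3 windows lay at 1020 and 896 bp in replicates 1 and 2, and at 31804 bp in replicate 3. The gene frpr-4, a receptor for flp-13 peptides, held a window in replicate 1 at line 2792, while the nearest in replicates 2 and 3 lay at 6057 and 44281 bp. Within 2000 bp, 5 of the 14 receptor genes had a window in replicate 1, 2 in replicate 2 and 1 in replicate 3, against 16.8%, 14.1% and 18% of all protein-coding genes.

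For 14 of the 31 flp genes (45.2%) the nearest windows of all 3 replicates were parts of 1 region, against 31.4% of all protein-coding genes. These 14 were seen at distances from 4693 to 26057 bp.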
